A study of Mus musculus with 12 samples.

Results

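The genes described here encode the extracellular and surface machinery of Wnt signalling: the Wnt ligands, the R-spondins that strengthen the signal, the Frizzled receptors and their co-receptors, the secreted antagonists, and Axin2, an intracellular brake on the pathway. They were chosen by symbol, as every row of the count table named Wnt, Fzd, Sfrp, Dkk or Rspo with its number, plus Lrp5, Lrp6, Frzb, Wif1, Axin2 and Ror2. This gave 47 of the 24421 rows. Their messenger RNA was compared in the tibialis anterior, a hindlimb muscle, of male mice aged 4 months, in 6 libraries from C57Bl/6 mice (WT) and 6 from mdx/mTR mice. The mdx allele disrupts Dmd, the dystrophin gene mutated in Duchenne muscular dystrophy, and mTR is the name of the telomerase RNA gene. The labels give the mdx/mTR animals as a strain, without the telomerase generation or the kind of mTR allele. No group carried only one of these alleles, so their effects cannot be told apart, nor can a difference of strain background. The labels number the samples but do not say that each came from a separate mouse, so p-values measure the spread between these libraries.

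Wnt proteins are secreted, lipid-modified signals. In the canonical branch a Wnt joins a Frizzled with Lrp5 or Lrp6, and beta-catenin then escapes degradation and activates target genes with Tcf and Lef factors. In the non-canonical branches Frizzleds act with Ror2 and related receptors on cell polarity and calcium. Secreted frizzled-related proteins (the Sfrp genes and Frzb) carry a Frizzled-like domain that binds Wnts outside the cell, Wif1 also binds Wnts, and Dickkopf proteins act mainly on Lrp5 and Lrp6. In skeletal muscle the pathway is known for roles in satellite cell division, in the switch to differentiation during repair, at the neuromuscular junction and in fibrosis.

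Sequencing depth per library ranged from 36903560 to 40981012 counts among the WT samples and from 35136327 to 60330410 among the mdx/mTR samples. Levels are in CPM, which puts counts on library sizes adjusted with the TMM method (trimmed mean of M-values). Fold changes and adjusted p come from edgeR's quasi-likelihood test over 13937 genes with Benjamini-Hochberg adjustment and a threshold of 0.05. Dmd, which checks the labels, fell from 237 ± 6.90 to 46.8 ± 7.20 CPM (SD, n = 6 each). Myofibre markers were the most abundant of the marker lists, with a sum of 131418 to 157482 CPM in WT and 103503 to 145471 CPM in mdx/mTR. Among these 6 genes Myh4 fell (mean 66076 CPM in WT, 43138 in mdx/mTR), Mylpf rose (7228 and 9657 CPM) and 4 did not pass. Of 6 macrophage markers, 6 rose, and their sum went from 73.2 to 127 CPM in WT to 226 to 607 CPM in mdx/mTR. Of 7 fibro-adipogenic progenitor markers, 4 rose (sum 475 to 609 CPM in WT, 726 to 876 CPM in mdx/mTR), and of 5 tendon markers 4 rose (131 to 203 CPM and 238 to 480 CPM). Of 6 endothelial markers, 3 fell and 1 rose (488 to 642 CPM and 400 to 526 CPM). Satellite cell and myoblast markers rose in 4 of 6 genes and fell in 1, Cdh15, with sums of 49.9 to 66.2 CPM and 65.4 to 135 CPM. The 4 that rose were Myf5, Myod1, Myog and Tmem8c, while Pax7 did not pass (log2 fold change 0.13, edgeR adjusted p 0.44). Of 6 pericyte and smooth muscle markers 3 fell and 1 rose. None of the 4 tested adipocyte markers passed, nor did Cd2, the only T cell marker tested. Among 5 keratinocyte markers only Krt10 was tested, and it did not pass (1.75 CPM in WT, 1.72 in mdx/mTR). The other keratinocyte markers, Krt5, Krt14, Krt1 and Dsg3, averaged 0.0186 CPM or less in each group. In bulk tissue, fewer cells of a type and less RNA per cell cannot be told apart.

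Of 32 tested members, 9 rose in mdx/mTR and 8 fell, a split close to that over all genes. Among the secreted frizzled-related genes Frzb and Sfrp5 fell while Sfrp1, Sfrp2 and Sfrp4 rose. Among the receptors Fzd1, Fzd2, Fzd3 and Fzd4 rose while Fzd9 and Fzd7 fell. Among the ligands Wnt5a, Wnt4 and Wnt9a fell while Wnt5b and Wnt11 rose, and Dkk3 fell. Of the 47 members, 44 had at least 1 count and 32 passed the filter on low counts. The 17 calls are 53.1% of the tested members, against 48.3% called over all genes, with 28.1% against 25.0% higher and 25.0% against 23.4% lower, so the share called was near that of the whole table. The groups did not overlap for 9 members (28.1%, against 25.2% of all genes), 3 higher (9.38%, against 12.6%) and 6 lower (18.8%, against 12.6%). At least a 2-fold change was called for 6 members, 2 higher and 4 lower, where 9.18% of all genes reached that size, 7.24% higher and 1.94% lower. The median log2 fold change was -0.03 over the tested members and 0.01 over all genes. The median size of the called changes was 0.89 over the members and 0.44 over all genes.

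**Figure D1:**
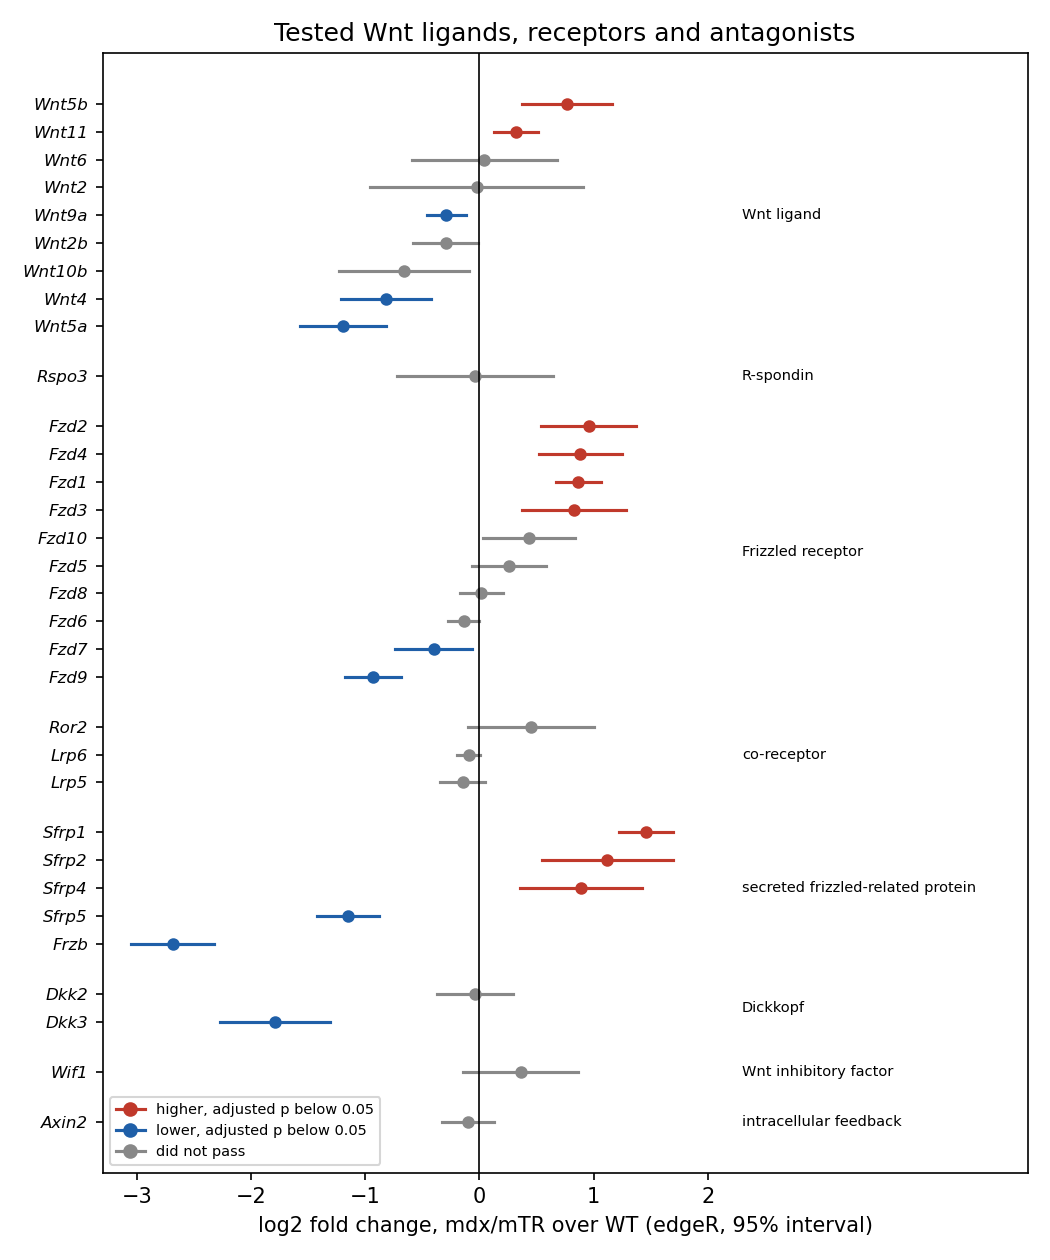
Fold change (log2, mdx/mTR over WT) for the 32 tested members, grouped by family, with points for the edgeR estimate and bars for its 95% interval. Red and blue mark genes past an adjusted p of 0.05, and Frzb has the lowest value at -2.68 and Sfrp1 the highest at 1.46.

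The ligands present in the muscle were few. Per kilobase of merged exon, which allows levels of different genes to be set side by side, Wnt9a stood at 6.83 ± 0.826 and Wnt4 at 6.78 ± 1.60 CPM per kb in WT, and these neighbours lay within each other's spread. Wnt11 followed at 2.08 ± 0.202, Wnt5a at 1.05 ± 0.138, Wnt2b at 0.789 ± 0.134 and Wnt5b at 0.533 ± 0.141 CPM per kb. In mdx/mTR the order was Wnt9a (5.59 ± 0.428), Wnt4 (3.85 ± 0.991), Wnt11 (2.59 ± 0.301), Wnt5b (0.909 ± 0.178), Wnt2b (0.644 ± 0.0874) and Wnt5a (0.463 ± 0.137 CPM per kb), so Wnt5b and Wnt5a exchanged places. The sum over all 19 ligand genes was 17.1 to 21.7 CPM per kb in WT and 14.3 to 15.1 in mdx/mTR, where it was 78.3% of the WT mean.

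Wnt5a, a ligand of the non-canonical branch that acts through Ror2, had the largest change of a ligand. Its level ran from 6.14 through a median of 7.39 to 8.54 CPM in WT and from 2.05 through 3.37 to 4.29 CPM in mdx/mTR. All 6 mdx/mTR libraries lay below all 6 WT libraries, at a log2 fold change of -1.19 ± 0.18 (SE; edgeR adjusted p 1.2e-04). Wnt4, which has known roles in kidney and in female gonad development and is also expressed in muscle, ran from 21.1 through 26.7 to 40.95 CPM in WT and from 9.06 through 16.2 to 20.9 CPM in mdx/mTR. The groups did not overlap, although the highest mdx/mTR library, replicate 6, came close to the lowest WT library, replicate 2. The log2 fold change of Wnt4 was -0.82 ± 0.18 (edgeR adjusted p 0.0024). Of its transcript, 5.21% of 50-base stretches occur in transcripts of other genes. Wnt9a, known from joint development and the most abundant ligand per kilobase, fell less, from a mean of 22.7 ± 2.75 to 18.6 ± 1.42 CPM (SD, n = 6 each; -0.29 ± 0.08, edgeR adjusted p 0.0093). With library totals alone its fold change was -0.13 and did not pass (edgeR adjusted p 0.241).

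Wnt5b, the close paralog of Wnt5a, moved the other way. It ran from 0.93 through 1.39 to 1.91 CPM in WT and from 1.87 through 2.28 to 3.21 CPM in mdx/mTR. The groups overlapped only in that WT replicate 5 exceeded mdx/mTR replicate 1, and the log2 fold change was 0.77 ± 0.18 (edgeR adjusted p 0.0038). Wnt11, a non-canonical ligand known from cell movements of the embryo, rose from a mean of 7.51 ± 0.729 to 9.38 ± 1.09 CPM (SD, n = 6 each; 0.32 ± 0.09, edgeR adjusted p 0.0093). A processed pseudogene, Gm8398, lies across 10.1% of the exon bases of Wnt11 on the opposite strand, and the strand handling of the counts is not given in the sources used here.

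**Figure D2:**
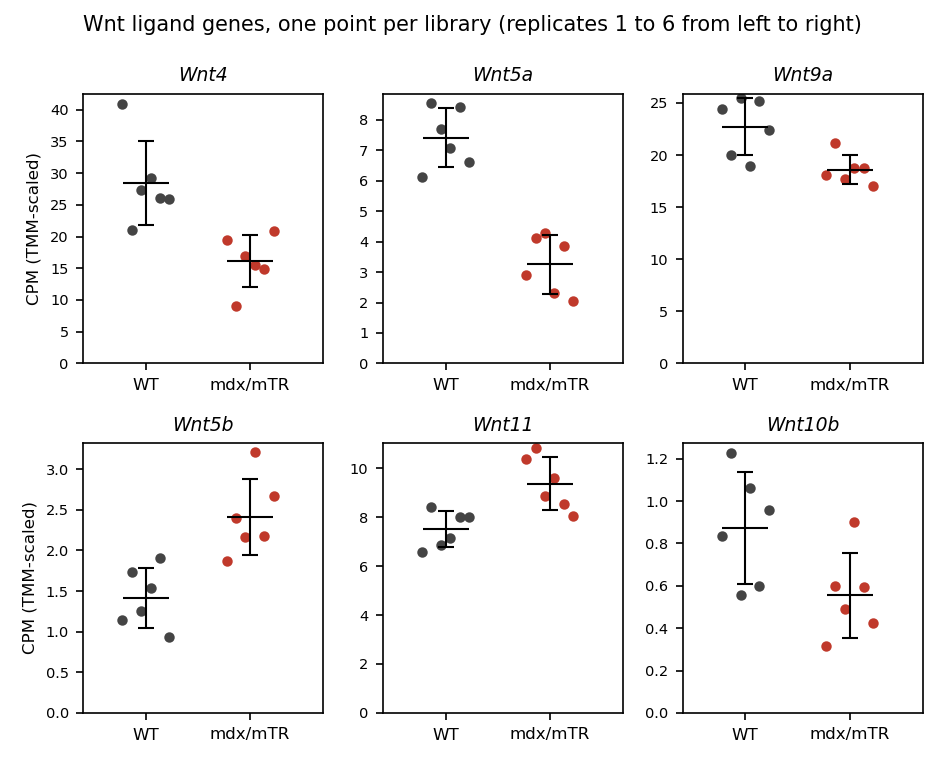
CPM of 6 Wnt ligand genes in each library on axes that start at 0, with a point per library, a horizontal mark at the mean and bars of 1 SD (n = 6 per group). Wnt5a and Wnt4 do not overlap between groups, while Wnt5b, Wnt11, Wnt9a and Wnt10b do.

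RefSeq start sites on GRCm38.p6, the assembly called mm10, were found for 31 of the 47 members, in 34 windows of 250 bases upstream. The motifs searched, on both strands, were CTTTGAT and CTTTGTT, letters of the core site of Tcf and Lef factors. The E-box CAGCTG of myogenic factors, which overlaps neither, was searched too. Among the 34 windows 2 (5.88%) held CTTTGAT, 2 (5.88%) CTTTGTT and 3 (8.82%) CAGCTG, against 3.21%, 5.03% and 13% of 32851 windows of the same length in the whole table. Windows are shown where the gene passed the threshold and the window held a match and no exon bases, which left Wnt5b, Wnt11 and Fzd7. Not shown are the matches of CTTTGTT in Dkk1, which was not tested, and of CAGCTG in Frzb, Wnt9a and Fzd10, whose windows hold exon bases. The sequences read 5′ to 3′ along the gene's strand, with the matched letters in capitals. In Wnt5b (chr6:119449387-119449636, minus strand, upstream of 1 of its 3 listed start sites) the match starts 71 bases before the start site. In Wnt11 (chr7:98834862-98835111, plus strand, upstream of 1 of 2 listed start sites) it lies on the complementary strand, 51 bases before. In Fzd7 (chr1:59481897-59482146, plus strand) CTTTGTT also lies on the complementary strand, 130 bases before. A match of letters is not a shown binding site.
Wnt5b: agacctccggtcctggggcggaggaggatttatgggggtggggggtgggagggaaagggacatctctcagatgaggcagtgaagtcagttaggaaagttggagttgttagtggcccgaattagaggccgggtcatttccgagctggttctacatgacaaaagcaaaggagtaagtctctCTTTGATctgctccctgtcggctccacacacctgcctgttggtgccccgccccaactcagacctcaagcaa
Wnt11: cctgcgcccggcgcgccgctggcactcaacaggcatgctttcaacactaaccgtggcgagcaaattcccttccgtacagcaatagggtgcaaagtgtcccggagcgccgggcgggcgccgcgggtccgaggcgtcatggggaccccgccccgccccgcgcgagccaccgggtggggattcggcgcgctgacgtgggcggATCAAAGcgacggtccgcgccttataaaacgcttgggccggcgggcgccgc
Fzd7: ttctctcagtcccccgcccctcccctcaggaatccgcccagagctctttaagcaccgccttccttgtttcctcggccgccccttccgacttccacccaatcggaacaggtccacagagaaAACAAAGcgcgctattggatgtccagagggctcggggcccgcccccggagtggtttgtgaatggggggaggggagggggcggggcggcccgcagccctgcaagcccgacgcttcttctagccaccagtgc

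The other tested ligands did not pass. Wnt10b, which restrains fat cell formation, went from 0.873 ± 0.263 to 0.554 ± 0.201 CPM (SD, n = 6 each; log2 fold change -0.66, 95% interval -1.23 to -0.09, edgeR adjusted p 0.054). DESeq2 (-0.665, adjusted p 0.0437) and limma-voom (-0.682, adjusted p 0.0485) placed it past the threshold, as did edgeR without WT replicate 3 (adjusted p 0.0347), WT replicate 5 (0.0417) or mdx/mTR replicate 4 (0.0156). Wnt2b, known from retina and limb development, averaged 2.62 ± 0.444 and 2.14 ± 0.290 CPM (-0.29, edgeR adjusted p 0.084), and passed without WT replicate 5 (adjusted p 0.048) or without mdx/mTR replicate 3 (adjusted p 0.0448). For Wnt2 (0.283 ± 0.0800 and 0.285 ± 0.193 CPM) and Wnt6 (0.441 ± 0.131 and 0.457 ± 0.211 CPM) the 95% intervals of the log2 fold change were wide, -0.95 to 0.91 and -0.59 to 0.68, so only large changes were detectable at this depth. The remaining 10 ligands were not tested. Wnt16 (107 counts over 12 libraries), Wnt10a (77), Wnt7b (69) and Wnt9b (61) had the most, and no library exceeded 0.475 CPM for any of them. Wnt3 had 10 counts, Wnt1 8, Wnt8b 4 and Wnt7a, the ligand known to act on satellite cells through Fzd7, 2. Wnt3a and Wnt8a had 0, which allows up to 0.0837 CPM in WT replicate 2, the library with the highest such limit (3 counts, for counting error only).

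R-spondins bind Lgr receptors and spare Frizzleds from turnover, and they were scarce. Rspo3 had means of 0.801 ± 0.228 (WT) and 0.780 ± 0.431 CPM (mdx/mTR; SD, n = 6 each; log2 fold change -0.04, 95% interval -0.72 to 0.64, edgeR adjusted p 0.93). An antisense gene covers 13.1% of its exon bases. Rspo1 had 62 counts over all libraries, Rspo4 33 and Rspo2 17, and none was tested.

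Of the 10 Frizzled receptors all were tested, 4 rose and 2 fell, where 25.0% of all genes rose and 23.4% fell. Fzd4, a receptor known from blood vessel growth, was the most affected in CPM: it ran from 45.2 through a median of 58.7 to 90.7 CPM in WT and from 82.0 through 110 to 142 CPM in mdx/mTR. The overlap came from WT replicate 2, at 90.7 CPM where the remaining WT libraries had 45.2 to 66.3 CPM, and the log2 fold change was 0.88 ± 0.17 (edgeR adjusted p 8.7e-04). Of 6 endothelial markers 3 fell and 1 rose, as given above. WT replicate 2 also had the highest endothelial sum of the WT libraries (642 CPM, against 488 to 544 CPM in the others). Among the mdx/mTR libraries it went the other way: replicate 2 had the highest endothelial sum (526 CPM) and the lowest Fzd4 (82.0 CPM). The part of endothelial cells in the level of Fzd4 was not tested.

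Fzd1 rose without overlap, from 3.68 through 4.40 to 4.997 CPM in WT to 7.12 through 7.91 to 9.37 CPM in mdx/mTR (0.87 ± 0.09, edgeR adjusted p 9.6e-06). Fzd2, which with Fzd1 and Fzd7 forms a subgroup of closely related receptors, ran from 1.86 through 2.67 to 3.74 CPM in WT and from 3.68 through 4.81 to 7.88 CPM in mdx/mTR. Its groups overlapped at WT replicate 2 and mdx/mTR replicate 6, and its log2 fold change was 0.96 ± 0.19 (edgeR adjusted p 0.0012). Fzd3, a receptor of axon guidance and planar polarity, was low, at 0.383 through 0.680 to 0.782 CPM in WT and 0.872 through 1.03 to 1.55 CPM in mdx/mTR. The groups did not overlap (0.83 ± 0.21, edgeR adjusted p 0.0056). None of the 50-base stretches of the transcripts of Fzd1, Fzd2 and Fzd7 is found in any other gene's transcript in the GENCODE M21 annotation.

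Fzd9 fell from 13.7 through 15.1 to 17.5 CPM in WT to 6.41 through 7.82 to 11.1 CPM in mdx/mTR, without overlap (-0.93 ± 0.11, edgeR adjusted p 2.6e-05). Within mdx/mTR, replicate 3 was highest, at 11.1 CPM where the remaining 5 had 6.41 to 8.09 CPM. Fzd7, the receptor through which Wnt7a acts on satellite cells and fibres, ran from 60.8 through 69.3 to 84.2 CPM in WT and from 33.3 through 52.8 to 70.1 CPM in mdx/mTR. These groups overlapped, and its log2 fold change of -0.40 ± 0.16 passed narrowly (edgeR adjusted p 0.049). The call was lost in 11 of 20 alternatives, among them library totals alone (-0.253, adjusted p 0.148) and the fits without WT replicate 1, 4 or 5 or mdx/mTR replicate 2, 3, 4 or 5 (adjusted p 0.0619 to 0.104), while its direction held in all 20.

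**Figure D3:**
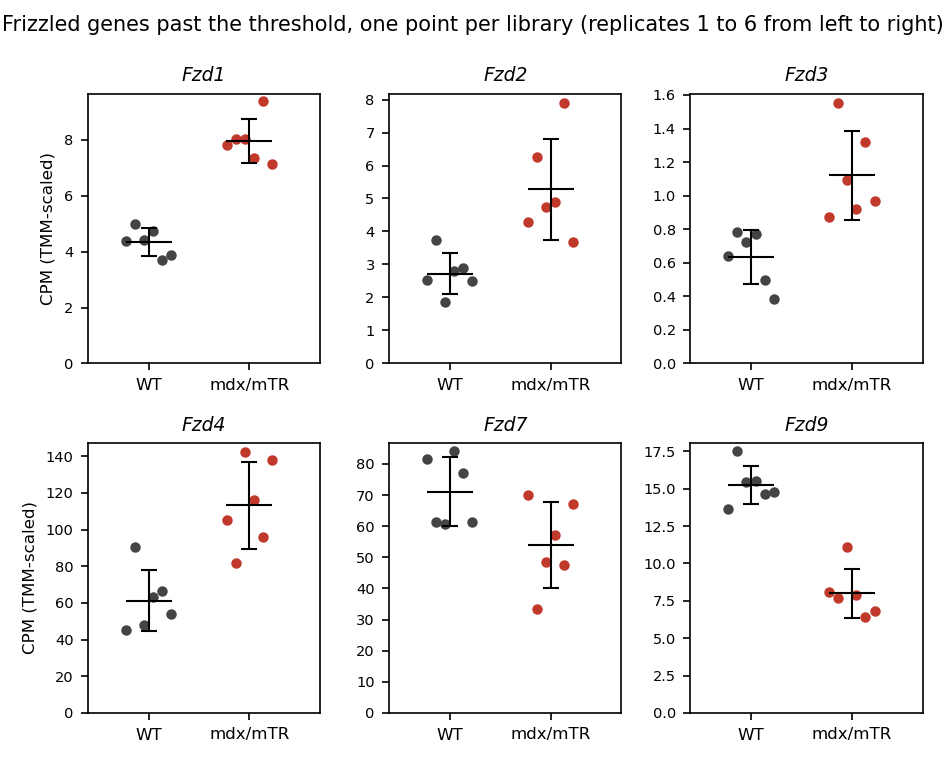
CPM of the 6 Frizzled genes past the threshold in each library on axes that start at 0, with a point per library, the mean and 1 SD (n = 6 per group). Fzd1 and Fzd3 are higher and Fzd9 lower without overlap, and Fzd4 overlaps through WT replicate 2.

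Per kilobase, Fzd7 was the leading Frizzled in WT (15.7 ± 2.44 CPM per kb) before Fzd4 (9.12 ± 2.48) and Fzd9 (6.66 ± 0.560). In mdx/mTR Fzd4 led (16.8 ± 3.52 CPM per kb) before Fzd7 (11.9 ± 3.03) and Fzd9 (3.49 ± 0.719). Fzd4 made up 24.3% ± 4.82 of the summed Frizzled level per kilobase among WT libraries and 42.1% ± 4.23 among mdx/mTR libraries (SD, n = 6 each), and Fzd9 17.97% ± 1.80 and 8.86% ± 1.72. The sum itself was 32.8 to 40.99 CPM per kb in WT and 31.4 to 44.7 in mdx/mTR, so the makeup shifted while the totals overlapped.

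The other 4 Frizzleds did not pass. Fzd10 averaged 1.53 ± 0.302 and 2.06 ± 0.555 CPM (SD, n = 6 each; log2 fold change 0.43, edgeR adjusted p 0.07), and it passed with library totals alone (adjusted p 0.0283) and without WT replicate 2 (adjusted p 0.0428), mdx/mTR replicate 1 (0.044) or mdx/mTR replicate 6 (0.0437). Fzd5 averaged 4.36 ± 0.798 and 5.21 ± 1.08 CPM (0.26, edgeR adjusted p 0.18), with an unclassified transcript across 17.8% of its exon bases. Fzd6, known from hair and skin polarity, averaged 8.80 ± 0.418 and 7.99 ± 0.557 CPM (-0.14, edgeR adjusted p 0.089). Fzd8 averaged 5.01 ± 0.474 and 5.08 ± 0.439 CPM (0.02, 95% interval -0.17 to 0.20, edgeR adjusted p 0.87).

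None of the 3 co-receptors passed. Lrp6 had means of 136 ± 6.18 (WT) and 127 ± 6.60 CPM (mdx/mTR; SD, n = 6 each), with a 95% interval of -0.19 to 0.01 for the log2 fold change (edgeR adjusted p 0.12). Lrp5 was 57.9 ± 7.27 and 52.3 ± 6.58 CPM (-0.15, 95% interval -0.35 to 0.05, edgeR adjusted p 0.21). For both, the interval excludes a 2-fold change in either direction. Ror2, the receptor tyrosine kinase that binds Wnt5a, was 0.832 ± 0.334 and 1.13 ± 0.307 CPM (0.45 ± 0.26 on the log2 scale, edgeR adjusted p 0.17).

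All 5 secreted frizzled-related genes were called, 3 higher and 2 lower, where 48.3% of all genes were called. Frzb, also called Sfrp3 and known from cartilage, had the largest change of all members. The gene lies at chr2:80411970-80447625 on the minus strand (GRCm38, GENCODE M21). It ran from 13.9 through a median of 16.9 to 18.8 CPM in WT and from 1.27 through 2.71 to 3.36 CPM in mdx/mTR, far from overlap. The log2 fold change was -2.68 ± 0.17 (edgeR adjusted p 1.1e-07), a level 6.43-fold lower. Sfrp5, an antagonist of Wnt5a known from fat tissue, ran from 5.83 through 6.43 to 7.13 CPM in WT and from 2.33 through 2.86 to 3.62 CPM in mdx/mTR. The groups did not overlap, and the fall was 2.22-fold (-1.15 ± 0.13, edgeR adjusted p 1.2e-05).

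Sfrp1 rose without overlap, from 1.83 through 2.25 to 2.49 CPM in WT to 5.02 through 6.13 to 6.90 CPM in mdx/mTR (2.75-fold, 1.46 ± 0.11, edgeR adjusted p 5.5e-07). Sfrp2 ran from 0.627 through 1.22 to 1.99 CPM in WT and from 1.80 through 2.48 to 4.47 CPM in mdx/mTR. WT replicate 4 exceeded mdx/mTR replicate 6, and the log2 fold change was 1.12 ± 0.27 (edgeR adjusted p 0.0036). An antisense gene, Gm26771, covers 17.3% of the exon bases of Sfrp2, so its level is uncertain if strand was not used in counting. Sfrp4, known from bone and from fibrous tissue, ran from 1.72 through 2.29 to 4.54 CPM in WT and from 3.31 through 4.98 to 7.65 CPM in mdx/mTR, with overlap from WT replicates 2 and 4 (0.89 ± 0.25, edgeR adjusted p 0.0092). Library mdx/mTR replicate 5 was the highest of its group for Sfrp1, Sfrp2 and Sfrp4 alike, and it also had the highest macrophage sum (607 CPM) and tendon sum (480 CPM). For the fibro-adipogenic progenitor markers replicate 2 had the highest sum (876 CPM) and replicate 5 had 860.5 CPM. Fibro-adipogenic progenitor markers rose in 4 of 7 genes in the same comparison, Pdgfra by a log2 fold change of 0.91 and Lum by 1.38, while Ly6a (0.01), Pi16 (-0.04) and Dpp4 (-0.07) did not pass. The part of these cells in the levels of the Sfrp genes was not tested.

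**Figure D4:**
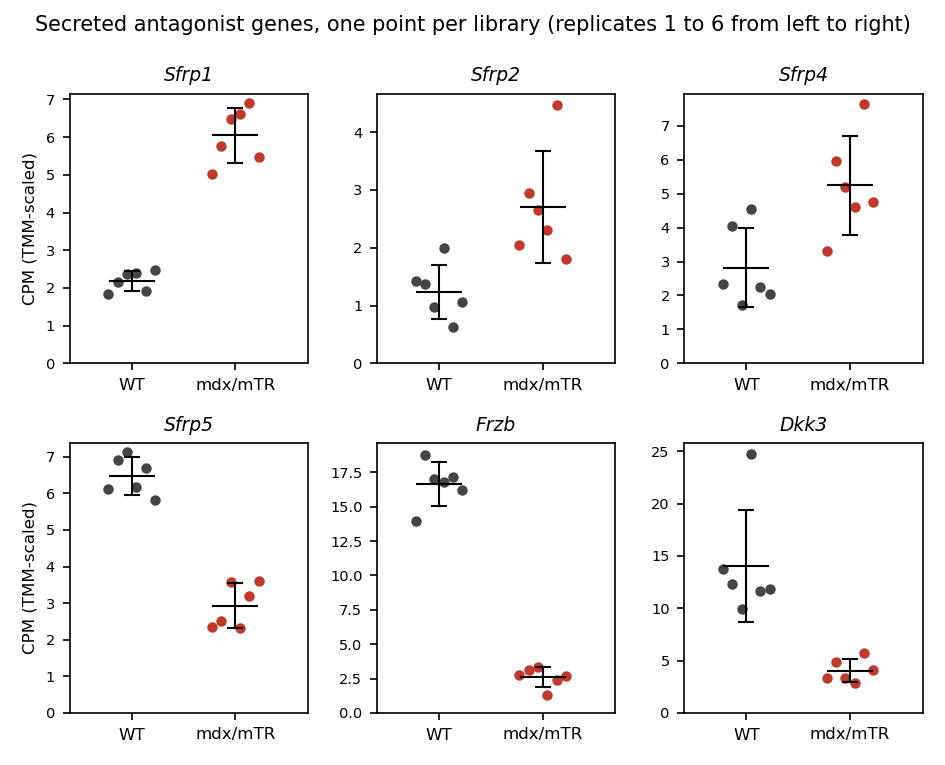
CPM of 6 secreted antagonist genes in each library on axes that start at 0, with a point per library, the mean and 1 SD (n = 6 per group). Sfrp1 is higher and Sfrp5, Frzb and Dkk3 are lower in mdx/mTR without overlap.

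These opposite changes altered the makeup of the family. Per kilobase, Frzb held 50.4% ± 2.41 of the summed level of the 5 genes among WT libraries and 13.1% ± 3.82 among mdx/mTR libraries (SD, n = 6 each). Sfrp5 held 32.6% ± 2.51 and 24.4% ± 4.23, Sfrp1 4.79% ± 0.599 and 22.1% ± 3.12, Sfrp2 5.88% ± 2.08 and 20.9% ± 4.23, and Sfrp4 6.34% ± 2.19 and 19.5% ± 2.62. In WT the order was led by Frzb and Sfrp5, while in mdx/mTR Sfrp5, Sfrp1, Sfrp2 and Sfrp4 stood at 1.54, 1.38, 1.35 and 1.26 CPM per kb, within each other's spread, and Frzb came last at 0.823. The sum of the 5 genes was 9.33 to 11.7 CPM per kb in WT and 5.06 to 8.07 in mdx/mTR, where it was 60.5% of the WT mean.

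**Figure D5:**
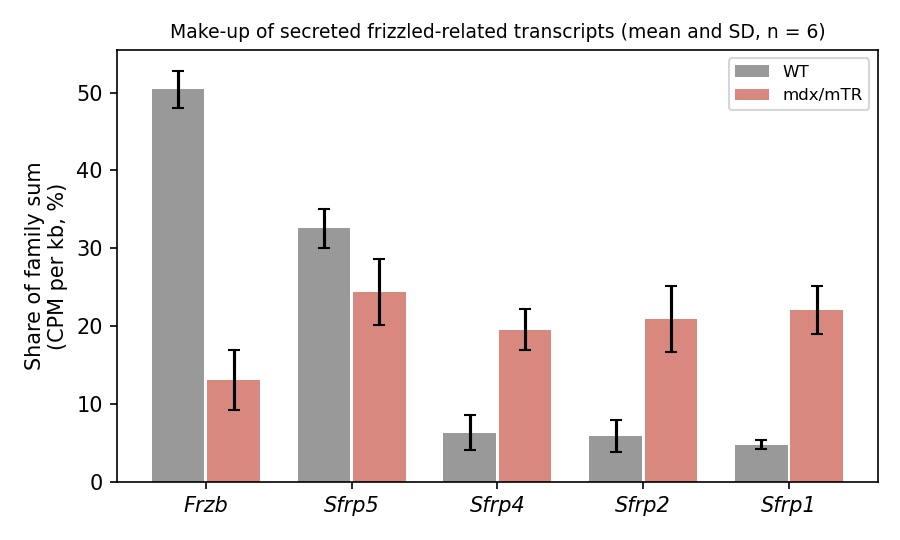
Share of each secreted frizzled-related gene in the family's summed CPM per kilobase of merged exon, as bars from 0 for the mean and error bars of 1 SD (n = 6 per group). Frzb goes from 50.4% in WT to 13.1% in mdx/mTR, and Sfrp1, Sfrp2 and Sfrp4 each reach about the share of Sfrp5.

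Dkk3, the divergent Dickkopf that does not act as a classical Lrp6 antagonist, fell from 9.97 through 12.1 to 24.7 CPM in WT to 2.88 through 3.73 to 5.73 CPM in mdx/mTR. The groups did not overlap, and the log2 fold change was -1.79 ± 0.22 (edgeR adjusted p 3.2e-05). WT replicate 4, at 24.7 CPM, stood above the other 5 WT libraries (9.97 to 13.8 CPM), and without it the log2 fold change was -1.55 (adjusted p 1.8e-05). Dkk2, an Lrp6 ligand known from the eye and bone, averaged 2.68 ± 0.322 and 2.62 ± 0.632 CPM (-0.04, 95% interval -0.37 to 0.29, edgeR adjusted p 0.86). Dkk1, the classical inhibitor, had 4 counts over all libraries and Dkk4 had 0. Wif1, which traps Wnts outside the cell, averaged 0.980 ± 0.309 and 1.26 ± 0.341 CPM (0.36, 95% interval -0.14 to 0.87, edgeR adjusted p 0.22).

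Axin2, a scaffold of the beta-catenin destruction complex and a widely used readout of canonical signalling, had means of 9.16 ± 1.28 (WT) and 8.57 ± 1.06 CPM (mdx/mTR; SD, n = 6 each). It ran from 6.69 through 9.55 to 10.4 CPM and from 7.31 through 8.25 to 10.1 CPM, so the groups lay over each other. Its log2 fold change was -0.10 with a 95% interval of -0.33 to 0.13 (edgeR adjusted p 0.48), which excludes a 2-fold change. Of 17 listed targets of Wnt and beta-catenin, Axin2 and Dkk1 included, 12 were tested, 3 rose and 4 fell. Over all genes 25.0% rose and 23.4% fell. The median log2 fold change was -4.1e-05 over the tested targets and 0.01 over all genes. Tcf7, a Tcf factor, rose by 1.38 ± 0.22 (edgeR adjusted p 2.3e-04), Wisp1, a secreted matrix-associated protein, by 1.28 ± 0.42 (adjusted p 0.021) and Myc, a growth factor-induced transcription factor, by 0.61 ± 0.20 (adjusted p 0.021). The 4 that fell were Notum, an enzyme that strips the Wnt lipid (-0.88 ± 0.34, adjusted p 0.044), the membrane inhibitor Apcdd1 (-0.79 ± 0.15, adjusted p 8.9e-04), and the Dishevelled-binding inhibitors Nkd1 (-0.46 ± 0.18, adjusted p 0.048) and Nkd2 (-0.40 ± 0.15, adjusted p 0.039). Of these, Apcdd1 held at an adjusted p of 0.01, while the number of lower targets was 1 with upper quartile scaling or library totals alone. That number was also 1 without WT replicate 3 or 6 or mdx/mTR replicate 4, and 2 without WT replicate 4 or mdx/mTR replicate 1, 2, 3 or 6.

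Other genes of Wnt secretion and of the cell surface changed in both directions, 6 higher and 5 lower of 15 tested among 24 listed. Their median log2 fold change was 0.22, and over all genes 25.0% were higher and 23.4% lower. Tpbg, a surface protein that inhibits canonical signalling, rose by 1.91 ± 0.20 (edgeR adjusted p 8e-06), Gpc3, a heparan sulphate proteoglycan that binds Wnts, changed by -1.26 ± 0.14 (adjusted p 1.2e-05) and Notum is given above. With library totals alone the split was 8 higher and 3 lower. Of 33 intracellular components 32 were tested, 7 rose and 11 fell, at a median of -0.12, where 48.3% of all genes were called. Tcf7, Tle3, a co-repressor of Tcf factors (0.94 ± 0.09, adjusted p 4.3e-06), and Dact3, a Dishevelled-binding inhibitor (0.92 ± 0.16, adjusted p 5.1e-04), had the largest changes. Ctnnb1, the beta-catenin gene, changed by -0.15 ± 0.04 (adjusted p 0.0092). The small falls of this list depended in part on the scaling. The split was 7 higher and 7 lower with upper quartile scaling and 11 higher and 2 lower with library totals alone. With RLE scaling (relative log expression) and with limma-voom it was 7 higher and 11 lower, as in the main fit. DESeq2 gave 7 higher and 12 lower, and 7 fell in the edgeR fit without WT replicate 3.

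The genes of planar polarity and of non-canonical reception had 5 higher and 3 lower of 17 tested, where 48.3% of all genes were called. Their median log2 fold change was -0.0088. Celsr3 rose (1.61 ± 0.26, edgeR adjusted p 2e-04) and Celsr2 fell (-1.25 ± 0.12, adjusted p 3.6e-06), both large cadherins of planar polarity, and Ptk7, a Wnt co-receptor without kinase activity, rose by 1.22 ± 0.20 (adjusted p 2.8e-04). The split was 5 higher and 1 lower with upper quartile scaling and 6 higher and 1 lower with library totals alone. Over all genes, library totals alone moved the median log2 fold change from 0.01 to 0.17, and changes elsewhere are relative to the TMM scaling. Over all genes the calls were 3479 higher and 3257 lower with TMM, and 5596 and 1560 with library totals alone.

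The authors' deposited table gives an adjusted p for the same 32 members. By the authors' deposited table, 9 were higher and 9 lower with an adjusted p below 0.05, and these include all 17 called by edgeR, in the same direction, plus Wnt10b (adjusted p 0.036). Log2 fold changes in the authors' deposited table are -2.57 for Frzb, 1.41 for Sfrp1, -1.14 for Wnt5a and -0.39 for Fzd7 (adjusted p 0.026).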

How the data were processed

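Counts per gene symbol were deposited by the authors for 12 libraries (WT and mdx/mTR, 6 each), as whole numbers. STAR, FastQC, DESeq2 and the mm10 build are named in the submitters' processing notes, without versions. The annotation, the counter and strand handling are not given in the sources used here. A second deposited table gives the authors' own comparison: per gene a mean signal, a log2 fold change and its error, the test statistic (a score), and raw and adjusted p-values, per the file headers.

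Counts were tested with edgeR 4.0.16 in R 4.3.3: filterByExpr (13937 genes), TMM scaling, glmQLFit and glmQLFTest with group as the only term, and Benjamini-Hochberg adjustment over all genes. A standard error is the size of the log2 fold change divided by the square root of F, and 95% intervals use its total degrees of freedom. CPM uses TMM-scaled totals of the tested genes. Levels per kilobase divide CPM by merged exon length in the GENCODE M21 basic annotation, which may not be the one counted. Shared stretches are 50-base stretches of the longest coding transcript found in transcripts of another gene, on either strand. Promoters are RefSeq windows of GRCm38.p6. Replicates differed by more than sampling noise (chi-square per degree of freedom 9.32 to 128), so none was taken as a duplicate. The procedure was tested on simulated counts.

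Full values are given for members past the threshold with an absolute log2 fold change of at least 0.5 or without overlap, and by mean for other tested members. From each other pathway list the 3 largest changes past the threshold are named. Any other gene, and the motifs, were chosen after values were seen. The members and lists were chosen with earlier results of these data known. Alternatives were other scalings and filters, DESeq2 1.42.0, limma-voom (limma 3.58.1), a replicate block, each library left out, an adjusted p of 0.01 and a minimum log2 fold change of 0.5. No per-sample column was unmatched to a sample. The Schwann cell marker list is not reported here.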

Additional observations from a re-analysis of the deposited data

Results flagged for a closer look

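Within each group of 6 libraries, the gap between the most extreme library and its neighbour was divided by the group's range and compared with Dixon's 95% critical value. Of 64 groups of member values 4 exceeded it, where chance gives about 3.2 (1 in 20). Dkk3 in WT replicate 4 was the highest of its group (24.7 against 9.97 to 13.8 CPM, ratio 0.743). Fzd9 in mdx/mTR replicate 3 was the highest (11.1 against 6.41 to 8.09 CPM, ratio 0.643), and without that library its log2 fold change was -1.05 (edgeR adjusted p 1.7e-06). Axin2 in WT replicate 3 was the lowest (6.69 against 9.21 to 10.4 CPM, ratio 0.674), and without that library its log2 fold change was -0.17 (edgeR adjusted p 0.124). Wnt6 in mdx/mTR replicate 5 was the highest (0.852 against 0.278 to 0.491 CPM, ratio 0.63), and without that library its log2 fold change was -0.22 (edgeR adjusted p 0.5). The 4 values fell on 4 different libraries.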

How the results depend on the processing

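Up to 20 alternatives were run per member: other scalings, filters and methods, a replicate block, and each library left out. The adjusted p of 0.01 and the minimum of 0.5 on the log2 scale are not among them and are given separately below. The call and direction of 15 of the 17 called members were the same under all of these up to 20 alternatives. Fzd7 and Wnt9a were the exceptions. Among uncalled members, Fzd10, Wnt10b and Wnt2b passed under some. The counts of called members were 9 to 10 higher and 7 to 9 lower over the fits that each left out 1 library. Testing against a minimum of 0.5 on the log2 scale left 3 higher and 5 lower members, 1012 higher and 356 lower of all genes, 1 higher and 2 lower surface regulators, 3 higher and 0 lower intracellular components, 1 higher and 0 lower targets, and 2 higher and 1 lower polarity genes. At an adjusted p of 0.01 there were 7 lower intracellular components, 1 higher and 1 lower target, and 3 higher and 1 lower polarity genes. Library totals alone gave 5596 higher and 1560 lower of all genes, 3 lower surface regulators, 11 higher and 2 lower intracellular components, 1 lower target and 1 lower polarity gene. Upper quartile scaling gave 7 lower intracellular components, 1 lower target and 1 lower polarity gene, and without a filter 2 targets were lower. Leaving out 1 library gave 7 to 10 lower intracellular components and 1 to 4 lower targets. The cause was not tested for these, beyond the scaling shift of all genes given with the report.

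Signs turned only for 9 uncalled members. With library totals alone the log2 fold change became positive for Lrp5 (0.00825), Lrp6 (0.062), Dkk2 (0.122), Fzd6 (0.0223), Axin2 (0.0548), Rspo3 (0.106) and Wnt2 (0.159). With upper quartile scaling it was 0.00342 for Dkk2, 0.00118 for Rspo3 and 0.0198 for Wnt2, and limma-voom gave -0.031 for Wnt6. Leaving out 1 library gave ranges across 0 for Dkk2 (-0.14 to 0.0306), Fzd8 (-0.0249 to 0.0588), Rspo3 (-0.358 to 0.0824), Wnt2 (-0.383 to 0.19) and Wnt6 (-0.221 to 0.177).

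The groups share replicate numbers. Deviations of same-numbered libraries had correlations of -0.14 to 0.33, with 2 of 6 over 0.1, and 2 of 6 numbers correlated best with themselves across the groups. With values this mixed, the check does not settle whether some numbers pair the samples, and the main fit used no pairing. With a replicate block 10 members were higher and 9 lower, with Fzd10 (0.42, edgeR adjusted p 0.0205) and Wnt10b (-0.678, adjusted p 0.04) added, and over all genes 3308 were higher and 3112 lower. Depth limits the 12 untested members with counts, none above 0.475 CPM in a library.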

Other observations

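The libraries of mdx/mTR were not alike in these genes. Replicate 5 was the highest of its group for 11 of the 32 tested members, among them Fzd1 (9.37 CPM), Fzd2 (7.88 CPM), Sfrp1 (6.90 CPM), Sfrp2 (4.47 CPM) and Sfrp4 (7.65 CPM). The same library had the highest summed macrophage markers (607 CPM, against 226 to 440 CPM in the other 5), the highest satellite cell and myoblast sum (135 against 65.4 to 101 CPM) and the lowest myofibre sum (103503 CPM). Replicates 1 and 6 had the highest Wnt4 (19.5 and 20.9 CPM) and Fzd7 (70.1 and 67.1 CPM) of the group. They also had the lowest macrophage sums (229 and 226 CPM) and the highest myofibre sums (145471 and 136256 CPM). Replicate 2 had the lowest Wnt4 (9.06 CPM) and the lowest Fzd7 (33.3 CPM), with a macrophage sum of 440 CPM. The part of these cell types in the values was not tested.

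Among WT libraries, replicate 2 was the highest for 14 of the 32 tested members, among them Fzd4 (90.7 CPM), Fzd9 (17.5 CPM), Frzb (18.8 CPM) and Wnt5a (8.54 CPM), and the lowest for 4, among them Wnt4 (21.1 CPM). It had the highest summed endothelial markers (642 CPM, against 488 to 544 CPM in the other 5) and the highest pericyte and smooth muscle sum (516 CPM). Its myofibre sum (131418 CPM) and its satellite cell and myoblast sum (49.9 CPM) were the lowest of the WT libraries. Among mdx/mTR libraries, the one with the highest endothelial sum, replicate 2 (526 CPM), had the lowest Fzd4 (82.0 CPM). The part of these cell types in the WT values was not tested either.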
